A study of Homo sapiens and Mus musculus with 10 samples.

Results

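The genes of major histocompatibility complex (MHC) class I antigen presentation were examined in bulk ATAC-seq peak lists from 4 human cell lines. In ATAC-seq the transposase Tn5 cuts and tags DNA where nucleosomes leave it open, so peaks of tagged fragments mark accessible chromatin. The 9 genes, of 19970 protein-coding genes on the autosomes and X in GENCODE release 44, were chosen by name: HLA-B, HLA-C, HLA-E, HLA-F, HLA-G, B2M, TAP2, TAPBP and NLRC5. Peaks were taken within 1 kb of any annotated start site and within 20 kb of the gene body, and a peak was called in a line when both of its replicates had one.

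The study profiled 5 untreated cell lines with 2 libraries each, and no treatment is named in the labels. GM12878 is a B-lymphoblastoid line transformed with Epstein-Barr virus, grown in RPMI-1640 with fetal bovine serum. K562, spelled K526 in the growth protocol, is an erythroleukaemia line grown in the same medium, HEK293T is an embryonic kidney line with the large T antigen of SV40, and HFF1 is a foreskin fibroblast line. The last 2 were grown in DMEM with fetal bovine serum. Each line is a single cell source, so a difference between lines is a difference between these cultures and not between tissues. The mouse embryonic stem cell libraries were not used because the genes are human. The labels do not say whether the 2 replicates of a line were separate cultures, so the replicate spread may be technical.

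Class I molecules display short peptides from inside the cell to cytotoxic T cells and natural killer cells. The heavy chains HLA-B, HLA-C, HLA-E, HLA-F and HLA-G pair with the light chain B2M, peptides are pumped into the endoplasmic reticulum by a transporter of which TAP2 is a subunit, and tapasin, the product of TAPBP, holds the empty class I molecule beside it. NLRC5 is the transactivator of class I genes. It acts through an SXY module of promoter elements, next to an enhancer bound by NF-kappaB and an interferon-stimulated response element (ISRE).

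The lists held between 52170 and 127560 peaks. Read numbers recovered from the deposited values gave a lowest local background, proportional to depth, of 0.465 and 0.466 reads in HEK293T and 1.71 to 2.43 reads in the other 6 libraries. A list names only peaks past its q threshold of 0.01, so no peak means no signal past that threshold at that depth. The B-cell genes CD79A, CD79B and MS4A1 had a promoter peak only in the 2 GM12878 libraries of the 8. The erythroid genes GATA1 and TAL1 had one only in K562, COL3A1 only in HFF1, and the kidney progenitor genes PAX2 and LHX1 only in HEK293T. The 2 other fibroblast genes of the list did not separate the lines: COL1A1 had a peak in 8 libraries and COL1A2 in 7.

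The promoters of 4 heavy chains are shown first, because their letters differ while their accessibility also differs between genes and lines. The RefSeq promoter table (GRCh38.p14) held 7 of the 9 genes, each as a window from 250 bases before to 50 bases after the start site. HLA-E and NLRC5 were not among them. Each sequence below reads in the direction of its gene. HLA-B lies at chr6:31357130-31357429 on the minus strand, HLA-C at chr6:31272043-31272342 on the minus strand, HLA-F at chr6:29723184-29723483 on the plus strand and HLA-G at chr6:29827575-29827874 on the plus strand. Capitals mark matches on either strand to an ISRE-like run (TTTCNNTTC, or a longer form with 1 more T before the last C), a kappaB-like run (GGGNNTTCC), a CCAAT box (CCAAT) and the core of a cAMP-response element (TGACG).
HLA-B: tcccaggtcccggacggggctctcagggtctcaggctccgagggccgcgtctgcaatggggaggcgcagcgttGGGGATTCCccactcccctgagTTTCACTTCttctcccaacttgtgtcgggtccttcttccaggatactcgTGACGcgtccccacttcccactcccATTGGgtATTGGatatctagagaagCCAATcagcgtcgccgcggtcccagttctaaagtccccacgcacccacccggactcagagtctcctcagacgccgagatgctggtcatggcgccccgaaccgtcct
HLA-C: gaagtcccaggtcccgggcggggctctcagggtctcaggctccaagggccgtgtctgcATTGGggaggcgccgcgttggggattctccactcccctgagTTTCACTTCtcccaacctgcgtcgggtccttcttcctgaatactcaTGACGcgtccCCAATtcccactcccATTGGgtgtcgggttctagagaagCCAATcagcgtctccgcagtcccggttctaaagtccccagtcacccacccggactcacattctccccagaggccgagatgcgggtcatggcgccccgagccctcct
HLA-F: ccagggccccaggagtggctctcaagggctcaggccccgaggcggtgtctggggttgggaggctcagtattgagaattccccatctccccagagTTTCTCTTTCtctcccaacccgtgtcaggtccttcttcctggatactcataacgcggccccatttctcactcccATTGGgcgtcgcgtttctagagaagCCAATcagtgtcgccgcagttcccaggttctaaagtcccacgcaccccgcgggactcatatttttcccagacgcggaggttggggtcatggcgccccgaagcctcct
HLA-G: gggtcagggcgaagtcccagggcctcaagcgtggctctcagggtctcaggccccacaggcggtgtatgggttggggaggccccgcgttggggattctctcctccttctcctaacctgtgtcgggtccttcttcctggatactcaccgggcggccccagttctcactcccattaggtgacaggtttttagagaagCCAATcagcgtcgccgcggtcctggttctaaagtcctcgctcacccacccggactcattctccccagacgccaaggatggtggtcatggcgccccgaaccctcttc

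The 4 windows were 73.4% to 88.5% identical to each other over 6 pairs, with HLA-B and HLA-C the closest pair. The 15 pairs that involved B2M, TAP2 or TAPBP were 44.4% to 47.6% identical. Reads from such similar stretches can be placed at the wrong copy, so peak heights at the heavy chain genes carry that uncertainty. HLA-B held matches of 4 kinds: the ISRE-like run at bases -155 to -147 from the start site, the kappaB-like run at -177 to -169, 3 CCAAT boxes and 1 TGACG. HLA-C held the ISRE-like run at -151 to -143, 4 CCAAT boxes and 1 TGACG. HLA-F held the longer ISRE-like run at -156 to -147 and 2 CCAAT boxes. HLA-G held 1 CCAAT box at -56 to -52 and none of the other letters searched. No match says only that these letters are absent from this window.

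Over all 35116 promoters of the table, TTTCNNTTC was found in 7.66%, the longer form in 3.57%, GGGNNTTCC in 6.58%, CCAAT in 34.6% and TGACG in 24.6%. Of the 7 genes, 3 held TTTCNNTTC (HLA-B, HLA-C, TAP2) and 4 held the longer form (HLA-F, B2M, TAP2, TAPBP). The longer form was added after the sequences had been seen, and the 2 forms overlap in TAP2. GGGNNTTCC was found in 3 (HLA-B, B2M, TAPBP), CCAAT in 5 and TGACG in 4. The interferon-gamma activated site TTCNNNGAA, present in 7.66% of all promoters, matched in 0 of the 7. These matches are descriptions of letters and not of bound factors.

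Of the 9 genes, 6 had an accessible promoter in every line and 3 did not. A peak within 1 kb of a start site was called for 8 of 9 in GM12878, against 71.9% of all protein-coding genes, and for 8 of 9 in HFF1, against 76.2%. It was called for 7 of 9 in HEK293T, against 67.8%, and for 7 of 9 in K562, against 70.4%. In all 4 lines together 6 of 9 were called, against 59.7% of all genes, so the set as a whole stood near the background. HLA-B, HLA-C, HLA-E, B2M, TAP2 and NLRC5 were the 6. HLA-F lacked a peak in K562, TAPBP lacked one in HEK293T, and HLA-G was called in no line. When only the start site of the Ensembl canonical transcript was used, HLA-B in K562 was not called either, which left 5 of 9 in all 4 lines, against 54.2% of all genes. By that rule 8 of 9 were called in GM12878 (66.3% of all genes), 7 in HEK293T (62.9%), 8 in HFF1 (71.5%) and 6 in K562 (64.7%). At any start site, 5 of 9 were called in all 4 lines with the 40000 strongest peaks of each list. K562 then had 6 of 9, against 63.8% of all genes. With pileups thinned to the background level of HEK293T, 4 of 9 were called in all 4 lines, and K562 had 5 of 9, against 62.9% of all genes. The share of all genes called in all 4 lines was not computed at either setting. The lower counts in all 4 lines are therefore not a result about these genes in particular.

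**Figure D1:**
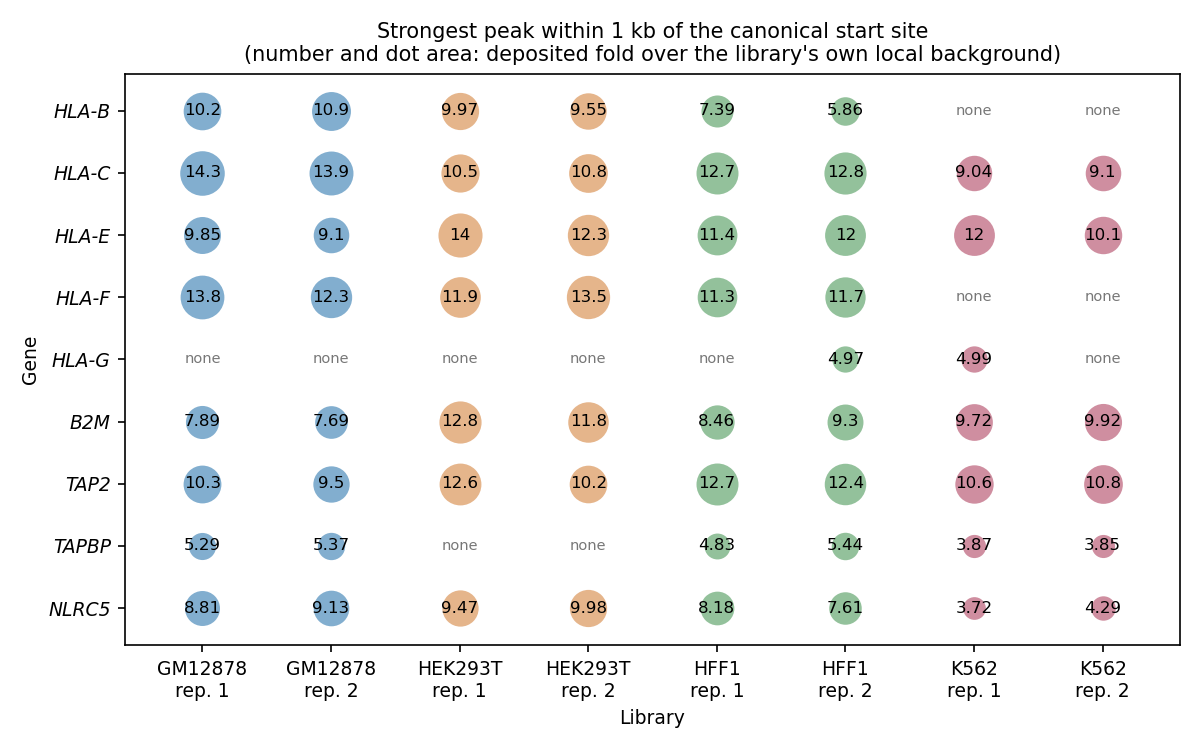
Strongest peak within 1 kb of the canonical start site of each gene (rows) in each of the 8 human libraries (columns). Dot area and the printed number give the authors' fold of summit against local background, which is not comparable between libraries, and "none" marks a library without a peak. K562 had none at HLA-B and HLA-F, HEK293T none at TAPBP, and HLA-G had a peak in 1 HFF1 and 1 K562 library.

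HLA-B encodes a classical heavy chain (ENSG00000234745.14, chr6:31353872-31367067, minus strand, with 9 annotated start sites). At its canonical start site, 31357179, GM12878 had peaks with 94 and 102 reads over the summit (authors' fold over local background 10.2 and 10.9). HEK293T had 16 and 17 reads (folds 9.97 and 9.55), and HFF1 had 31 and 22 reads (folds 7.39 and 5.86). Neither K562 library had a peak there. The 6 libraries of the other lines all did, a pattern found at 1.85% of canonical start sites. The background levels were 2.21 and 1.97 reads in K562, 1.71 and 1.73 in GM12878, 2.43 and 2.06 in HFF1, and 0.465 and 0.466 in HEK293T, and the part of depth in the missing K562 peak was not tested. With lists cut to their 40000 strongest peaks, HLA-B was called at this start site only in GM12878 and HEK293T.

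A second accessible site lay at the far upstream start sites of HLA-B. The region chr6:31366714-31367419 was called in all 4 lines. The folds were 16.7 and 17.2 in GM12878, 10.9 and 8.12 in HEK293T, 19.0 and 16.5 in HFF1, and 14.7 and 16.5 in K562. In K562 these peaks had 47 and 48 reads over the summit, both at -9884 bp from the canonical start site. The median summit fell in an exon of HLA-B that overlaps DHFRP2, a pseudogene related to the dihydrofolate reductase gene, so reads there may belong to another copy. Calling HLA-B accessible in K562 therefore rests wholly on this upstream site. The bases around its median summit, chr6:31367015-31367115, shown on the plus strand, held a match to the consensus of the insulator protein CTCF on the minus strand, in capitals.
HLA-B upstream site: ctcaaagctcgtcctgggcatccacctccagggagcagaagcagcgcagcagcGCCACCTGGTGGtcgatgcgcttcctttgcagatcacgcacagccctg

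HLA-C encodes another classical heavy chain (ENSG00000204525.18, chr6:31268749-31272130, minus strand) and was accessible at its start in all 8 libraries. The summit held 115 and 116 reads in GM12878, 21 and 21 in HEK293T, 62 and 62 in HFF1, and 28 and 26 in K562. The peak was 1132 and 1113 bp wide in GM12878, against 632 and 289 bp in HEK293T, 324 and 339 bp in HFF1, and 280 and 282 bp in K562. GM12878 was therefore the line with the widest and tallest peak in both replicates. After pileups were thinned to the background level of HEK293T, HLA-C was no longer called in K562 and was still called in GM12878 and HFF1. HLA-C had 3 regions within 20 kb, the fewest of the 9 genes, and its promoter was the only one called in any line.

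HLA-E presents a narrow set of peptides, mostly from the leader sequences of other class I chains, to natural killer cells (ENSG00000204592.9, chr6:30489509-30494194, plus strand). Its promoter was accessible in all 8 libraries, with 146 and 142 reads over the summit in GM12878, 36 and 35 in HEK293T, 103 and 94 in HFF1, and 114 and 96 in K562. The K562 and HFF1 ranges overlapped here, whereas at HLA-C both K562 peaks had fewer reads than both HFF1 peaks. A region at chr6:30481765-30482499, with a median summit at -7266 bp from the start site, was also called in all 4 lines. A region 7241 bp downstream of the start, chr6:30496374-30497038, was called in GM12878, HFF1 and K562. Its folds were 3.62 and 3.99 in GM12878, 9.09 and 9.96 in HFF1, and 10.6 and 12.3 in K562.

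HLA-F is a non-classical heavy chain gene (ENSG00000204642.14, chr6:29722775-29738528, plus strand, 14 start sites). Its promoter peak had 119 and 103 reads over the summit in GM12878, 25 and 30 in HEK293T, and 82 and 69 in HFF1. No peak lay within 1 kb of any of its start sites in either K562 library. The same pattern, a call in the other 3 lines and no peak in K562, held for 1.72% of protein-coding genes, and 343 other genes shared it. K562 chromatin around the gene was still accessible: 5 of the 9 regions within 20 kb of HLA-F were called in K562, the same number as in HEK293T. That is 55.6%, against 24.8% of all regions in K562 and 16.5% in HEK293T. One of them, chr6:29737876-29738368 in an intron, had folds of 9.78 and 9.12 in K562 and was called in all 4 lines.

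**Figure D2:**
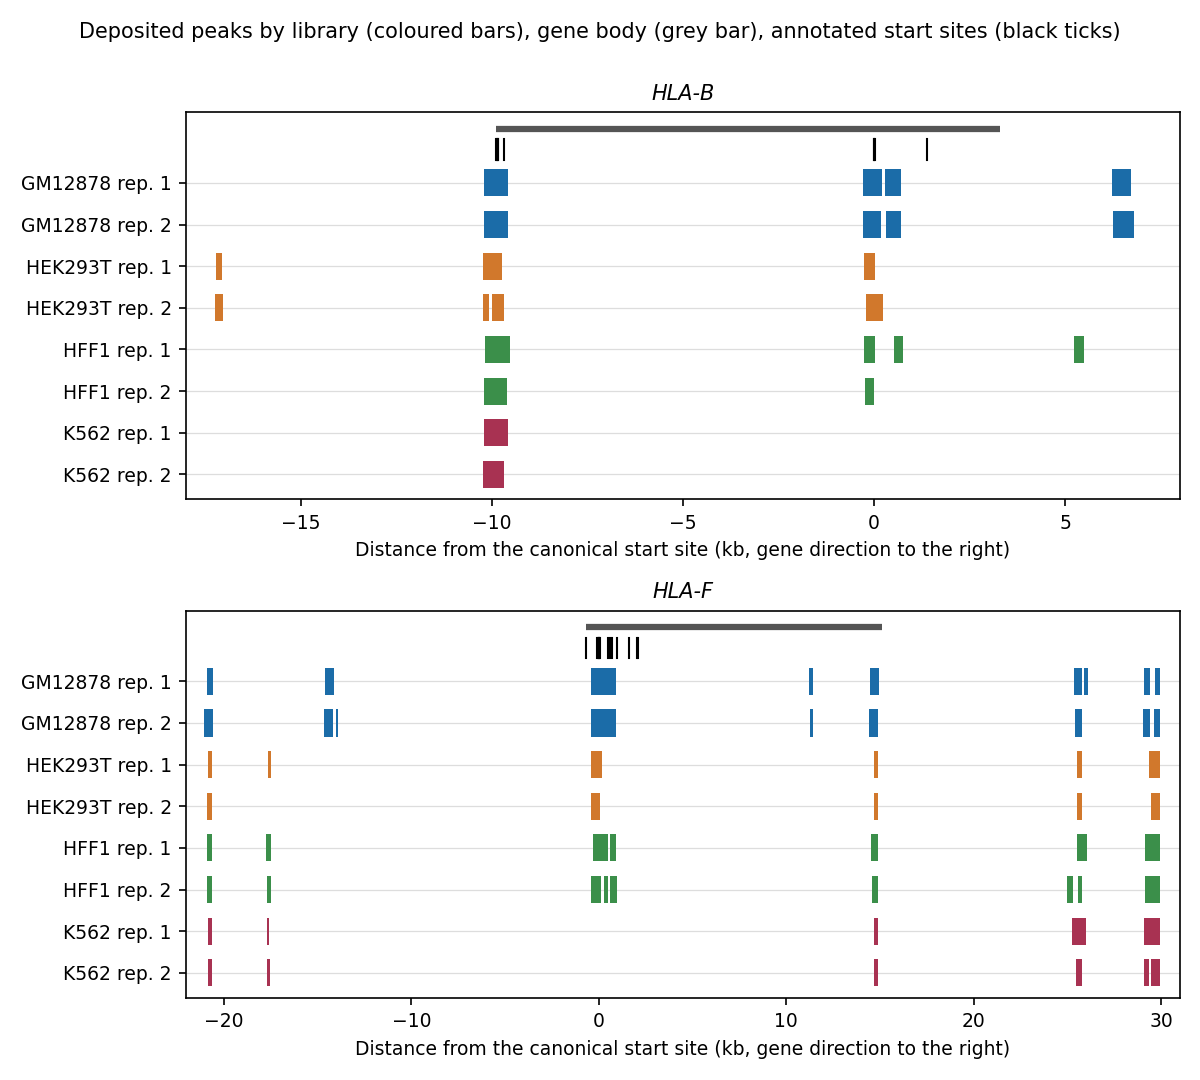
Peaks of each library (coloured bars, 1 row per library) around HLA-B and HLA-F, by distance in kb from the canonical start site in the direction of the gene. The grey bar is the gene body and black ticks are annotated start sites. K562 had no peak at 0 in either gene, while the upstream site of HLA-B and a site at the far end of HLA-F were present in all 8 libraries.

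HLA-G, known for expression in the placenta (ENSG00000204632.13, chr6:29826967-29831125, plus strand), had no promoter call in any line. A lack of a call in every line was found for 17.1% of protein-coding genes. A single peak of 172 bp in HFF1 replicate 2 had 17 reads over the summit and a fold of 4.97, and a single peak of 262 bp in K562 replicate 1 had 15 reads and a fold of 4.99. Neither was seen in the other replicate. The summits lay 358 and 684 bp downstream of the canonical start site, in an exon and in an intron, so the 2 peaks did not overlap and neither covered the CCAAT box of the printed window. Only 3 other genes had the same pattern over the 8 libraries. Regions farther away were called: 1 in all 4 lines at chr6:29847896-29848511, 1 in GM12878, HFF1 and K562 at chr6:29813867-29814150 (folds 3.65 to 7.32), 2 in GM12878 only (chr6:29834907-29835310 and chr6:29845406-29845702) and 2 in K562 only (chr6:29814894-29815327 and chr6:29850101-29850368).

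B2M, the light chain shared by all class I molecules (ENSG00000166710.23, chr15:44711358-44718851, plus strand), was accessible at its start in all 8 libraries. The summit held 155 and 157 reads in GM12878, 36 and 32 in HEK293T, 92 and 88 in HFF1, and 114 and 103 in K562. Within each list its -log10 p exceeded that of most peaks, at the 83.1 to 96.2 percentile. The peak region also overlapped a start window of PATL2, so it cannot be assigned to B2M alone. Its promoter, chr15:44711267-44711566 on the plus strand, is printed because it holds matches of 4 kinds inside a peak in all 8 libraries.
B2M: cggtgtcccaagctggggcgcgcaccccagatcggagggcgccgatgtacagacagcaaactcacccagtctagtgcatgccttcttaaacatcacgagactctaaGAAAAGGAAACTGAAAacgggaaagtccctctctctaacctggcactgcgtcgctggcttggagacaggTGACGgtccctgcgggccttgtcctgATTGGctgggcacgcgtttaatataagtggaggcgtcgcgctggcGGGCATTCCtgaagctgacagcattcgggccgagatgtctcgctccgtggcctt

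In the B2M window the capitals mark 2 overlapping longer ISRE-like runs at -144 to -129, TGACG at -75 to -71, the CCAAT box, read on the other strand, at -49 to -45, and the kappaB-like run at -4 to 4. A second region in an intron, chr15:44712558-44712896, was called in GM12878, HFF1 and K562 with folds between 2.61 and 4.79 and had no peak in HEK293T.

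TAP2, a subunit of the peptide transporter (ENSG00000204267.19, chr6:32821833-32838739, minus strand), had a promoter peak in all 8 libraries. The summit held 126 and 114 reads in GM12878, 30 and 28 in HEK293T, 109 and 88 in HFF1, and 92 and 86 in K562. The peak widths ran from 765 bp in HEK293T to 1056 bp in HFF1. A read-through transcript shares this start site. Beyond the 3' end of TAP2, GM12878 alone had peaks at chr6:32816061-32816522 (folds 8.15 and 7.67) and chr6:32816826-32817271 (folds 9.18 and 7.58). Both overlapped start windows of HLA-DOB, which encodes a chain of a class II-related molecule of B cells. Upstream, the region chr6:32843801-32845018 was called in all 4 lines at the start sites of PSMB8 and PSMB9, which encode immunoproteasome subunits.

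TAPBP encodes tapasin (ENSG00000231925.14, chr6:33299694-33314284, minus strand, 17 start sites), and HEK293T had no peak at any of them. Its strongest promoter peak had 123 and 120 reads over the summit in GM12878, 86 and 81 in HFF1, and 83 and 77 in K562. The folds were low, at 5.29 and 5.37 in GM12878, 4.83 and 5.44 in HFF1, and 3.87 and 3.85 in K562. The local background under these peaks was high, from 14.1 to 22.4 reads, while the median over all peaks of GM12878 was 3.27 reads. Merged over the libraries, the promoter region chr6:33313728-33315365 had its median summit upstream of TAPBP, within the gene ZBTB22. A call in the other 3 lines with no HEK293T peak was found for 2.08% of protein-coding genes. The calls in GM12878, HFF1 and K562 were still made when their pileups were reduced to the background level of HEK293T. HEK293T did have peaks nearby: 5 of the 12 regions within 20 kb were called in it (41.7%, against 16.5% of all regions). Each of them overlapped start windows of neighbouring genes, among them chr6:33317538-33318222 at the start of ZBTB22 with folds of 11.4 and 8.56.

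The strongest TAPBP summit differed in position between the 3 lines that had a peak. Relative to the canonical start site, it lay at -49 and -53 bp in GM12878 and at -476 and -467 bp in HFF1. In K562 it lay at -1054 and -1059 bp. A weaker peak had its summit at -592 and -591 bp in K562 and at -582 and -555 bp in GM12878. The HFF1 peaks ran from -832 to 281 bp and from -769 to 71 bp, so they covered the GM12878 summits. The promoter window, chr6:33314029-33314328 on the minus strand, is printed because the peaks of 2 lines covered its motif matches and those of K562 did not.
TAPBP: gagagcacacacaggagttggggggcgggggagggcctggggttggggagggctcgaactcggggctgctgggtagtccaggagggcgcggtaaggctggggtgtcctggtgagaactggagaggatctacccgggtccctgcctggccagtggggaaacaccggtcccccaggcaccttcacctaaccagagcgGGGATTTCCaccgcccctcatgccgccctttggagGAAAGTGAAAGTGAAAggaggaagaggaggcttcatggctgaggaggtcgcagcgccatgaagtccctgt

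The kappaB-like run at -55 to -47 and the 2 longer ISRE-like runs at -20 to -5, which overlap each other, lay inside a peak in 4 of the 8 libraries, those of GM12878 and HFF1. In K562 the peaks lay on either side of these letters.

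**Figure D3:**
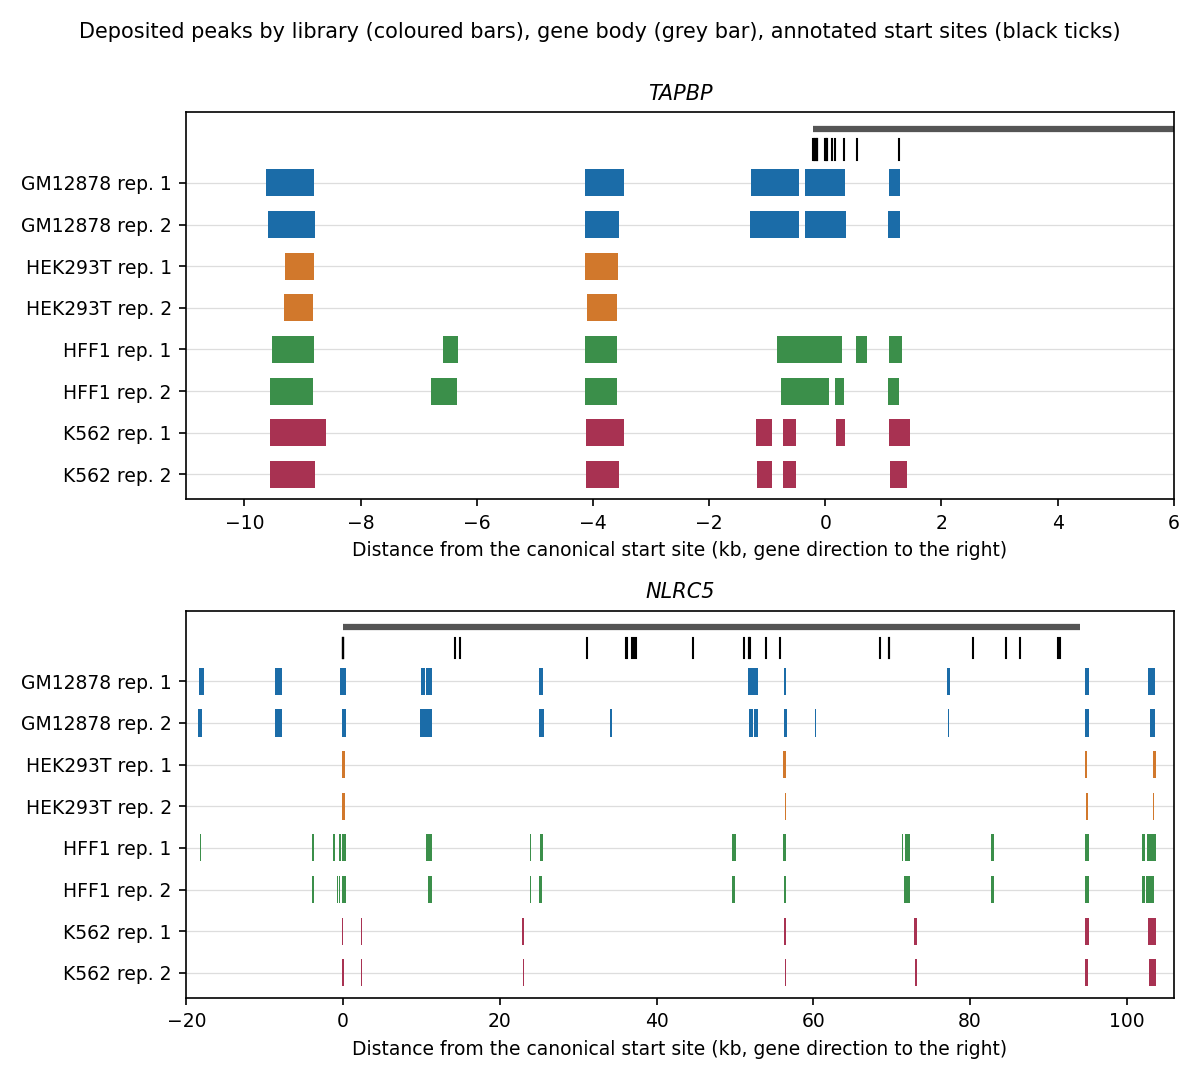
Peaks of each library (coloured bars, 1 row per library) around TAPBP and NLRC5, by distance in kb from the canonical start site in the direction of the gene. The grey bar is the gene body, which runs past the right edge for TAPBP, and black ticks are annotated start sites. Neither HEK293T nor K562 had a bar at 0 in TAPBP, and K562 had bars on either side of it. The K562 bars at 0 in NLRC5 were the narrowest, at 150 and 164 bp.

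NLRC5, the class I transactivator (ENSG00000140853.17, chr16:56989485-57083531, plus strand, 28 start sites), had a peak at its canonical start in all 8 libraries, and the K562 peaks were the smallest. The summit held 107 and 116 reads in GM12878, 17 and 19 in HEK293T, 83 and 66 in HFF1, and 16 and 17 in K562. The widths were 715 and 559 bp in GM12878, 410 and 352 bp in HEK293T, 508 and 507 bp in HFF1, and 150 and 164 bp in K562, where 150 bp is the narrowest width in the list. Their folds in K562 were 3.72 and 4.29. K562 was no longer called at NLRC5 among the 40000 strongest peaks of each list, where HEK293T still was. It was not called after thinning to the HEK293T background level either. Thinning kept all HEK293T peaks, so the HEK293T call could not change there. With a -log10 q of at least 5, K562 was not called at the canonical start either, where its peaks had -log10 q of 4.45 and 5.77.

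The long NLRC5 gene body and its flanks held 26 regions. All 4 lines shared 4 of them (15.4%, against 8.53% of all regions). Of the 20 called in at least 1 line, 13 had no peak in another line (65%, against 59.9% of all called regions): 6 in HFF1, 4 in GM12878, 3 in K562 and 0 in HEK293T. The region with the highest folds in GM12878 was intronic, chr16:57014579-57015140, at 17.1 and 16.9. It had folds of 10.1 and 12.0 in HFF1, and no peak in HEK293T or K562. Another intronic region, chr16:57000069-57000968, showed the same 2 lines, with folds of 8.08 and 7.68 in GM12878 and 9.22 and 8.42 in HFF1. At an internal start site, chr16:57041283-57042534 was called in GM12878 alone, with folds of 6.37 and 6.31.

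One internal site was present in every library. The region chr16:57045680-57046240, also in an intron and 56430 bp downstream of the canonical start, had folds of 5.25 and 4.63 in GM12878, 12.4 and 11.5 in HEK293T, 11.3 and 9.01 in HFF1, and 6.18 and 5.81 in K562. The bases around its summit, chr16:57045937-57046037 on the plus strand, held a CTCF consensus match on the minus strand, in capitals, and are printed for comparison with the upstream site of HLA-B.
NLRC5 internal site: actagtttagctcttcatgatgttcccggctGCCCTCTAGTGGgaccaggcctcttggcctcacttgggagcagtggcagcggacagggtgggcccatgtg

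These were the 2 promoter-window sites with a CTCF match near the 9 genes, and both were present in all 8 libraries. A further 2 matches lay away from start sites. One, at chr6:31374209-31374439 upstream of HLA-B, was called in HEK293T alone (folds 6.83 and 8.19), and the other, at chr6:29705706-29705960 upstream of HLA-F, was called in HFF1 and K562. Across the genome, 19.6% of distal regions called in all 4 lines held the consensus, against 0.854% of those called in 1 line. Near the 9 genes, 7 distal regions were called in all 4 lines and 0 of them held it.

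The neighbourhoods of the 9 genes held 97 regions, of which 77 lay outside the genes' own promoter windows. GM12878 had the most calls, with 55 regions (56.7%), against 36.3% of all 243200 regions. HFF1 had 48 (49.5%, against 42.1%), K562 had 36 (37.1%, against 24.8%) and HEK293T had 26 (26.8%, against 16.5%). All 4 lines shared 22 regions (22.7%, against 8.53%). These regions include promoters of the chosen genes and of their neighbours. No line called 21 of the 97, against 26.5% of all regions. Of the 76 called in at least 1 line, 32 had no peak in another line, which is 42.1%, against 59.9% of all called regions. Among all 97, GM12878 held 15 such regions (against 14.7% of all 243200), HFF1 11 (21.2%), K562 5 (6.31%) and HEK293T 1 (1.78%). These counts are to be read out of 97, since the percentages are over all regions, called or not. With pileups thinned to the HEK293T background level, which still left lists of different lengths, K562 had 23 regions. Thinning kept all HEK293T peaks, so the 26 regions of HEK293T could not change. The order of the lines followed the number of peaks in their lists except that HFF1, which had the longest lists, came after GM12878, and the part of depth in it was not tested beyond the thinning.

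**Figure D4:**
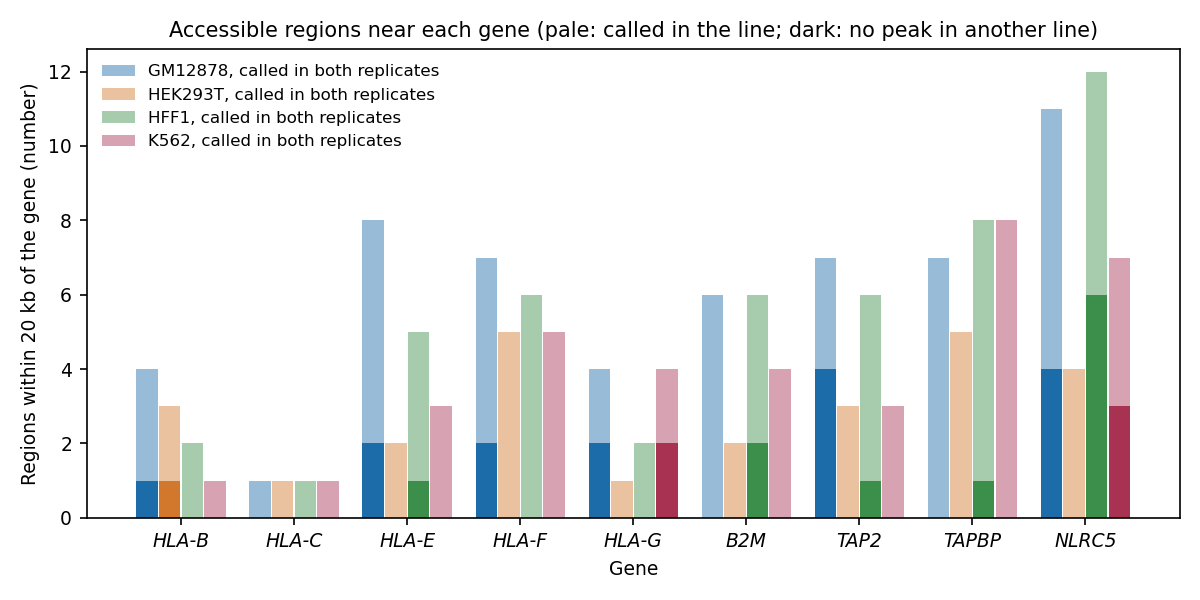
Number of regions within 20 kb of each gene that were called in both replicates of a line (pale bars), and the number called in that line with no peak in any library of another line (dark bars). NLRC5 had the most, with 12 regions in HFF1 and 11 in GM12878, and HLA-C had 1 in every line.

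Whether lines differed by more than replicates was tested on the base pairs covered by peaks within 20 kb of each gene body. Eta squared, the share of variance that lies between lines, was set against its value under every other pairing of the 8 libraries (exact permutation test, one-sided, Benjamini-Hochberg adjusted over 19379 genes, threshold 0.05). Of the 9 genes, 5 passed, against 77.0% of all genes tested. NLRC5 (eta squared 0.979) and HLA-E (0.98) had the smallest p that this exact test can give, 0.00952 (adjusted p 0.0231). That p was reached by 41.2% of all genes tested. HLA-F, B2M and TAP2 had an adjusted p of 0.039. HLA-B (0.0591), HLA-G (0.0685), HLA-C (0.078) and TAPBP (0.0964) did not pass, which does not show that their lines were alike.

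NLRC5 covered 7385 and 7324 bp in GM12878, 7098 and 5709 bp in HFF1, 2606 and 2168 bp in K562, and 1462 and 1014 bp in HEK293T. No 2 lines overlapped. HLA-E covered 3502 and 3553 bp in GM12878, 2552 and 3067 bp in HFF1, 2176 and 1992 bp in K562, and 895 and 724 bp in HEK293T, again without overlap. TAPBP covered 5658 and 5685 bp in GM12878, 5913 and 5859 bp in HFF1, 5988 and 5388 bp in K562, and 2424 and 2371 bp in HEK293T. There the K562 range spanned those of GM12878 and HFF1, and HEK293T lay below the other 3 lines.

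Single libraries moved some of these calls. In the same exact test, B2M had an adjusted p of 0.0654 without GM12878 replicate 1, 0.0743 without GM12878 replicate 2, 0.0542 without K562 replicate 1 and 0.0634 without K562 replicate 2. HLA-B passed without HFF1 replicate 1 (adjusted p 0.0365) or HFF1 replicate 2 (0.0256). HLA-C passed without HEK293T replicate 1 (0.0273) or HEK293T replicate 2 (0.0278), and TAPBP without K562 replicate 1 (0.0291) or K562 replicate 2 (0.0293). After thinning to the HEK293T background level, 3 of the 9 passed, against 42.2% of all genes tested. They were HLA-B, B2M and NLRC5, each with an adjusted p of 0.0451. Of the 5 that passed at full depth, B2M and NLRC5 were still among them, and HLA-E (adjusted p 0.13), HLA-F (0.0825) and TAP2 (0.0509) were not. Thinning was a single random draw that dropped whole peaks and left the kept peaks at their full width. Covered length after thinning was therefore not matched for depth.

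**Figure D5:**
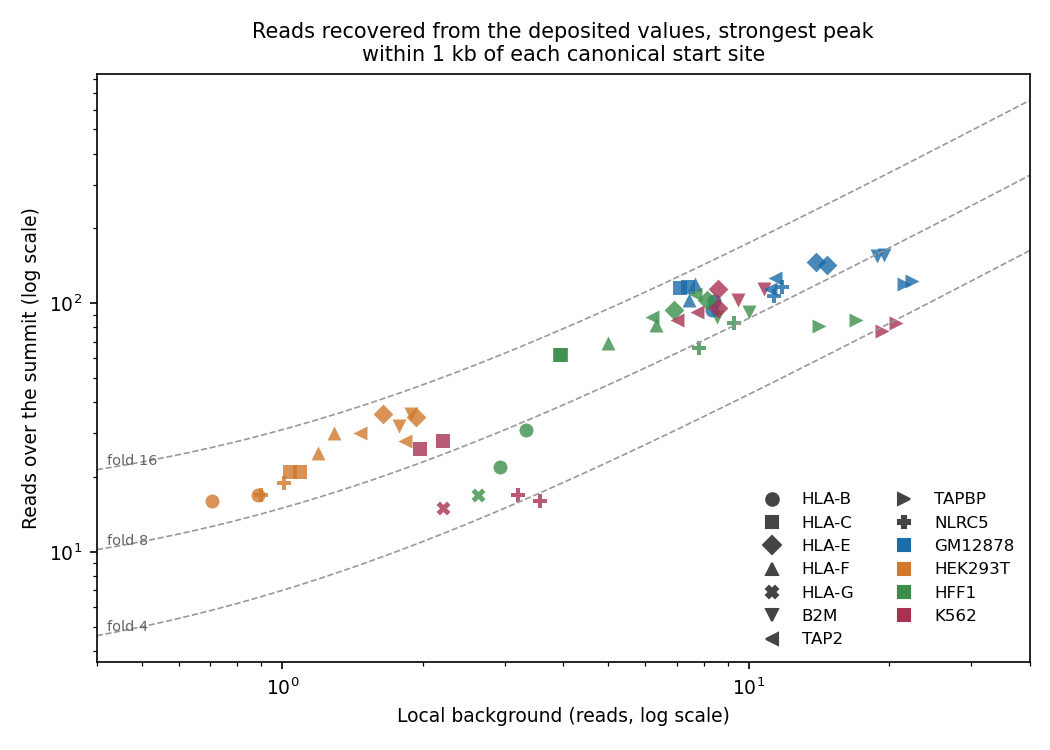
Reads over the summit (y axis, log scale) against local background (x axis, log scale) for the strongest peak within 1 kb of the canonical start site, both recovered from the deposited values. Symbols mark genes, colours mark lines, and dashed curves join points of equal fold (4, 8 and 16). HEK293T points lie at the lower left, between 16 and 36 reads, and the TAPBP points lie toward the right, with backgrounds of 14.1 to 22.4 reads.

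Among 26 other genes of the pathway, 24 had a promoter call in all 4 lines, against 59.7% of all genes. All 14 regulators did, among them RFX5, NFYA, CREB1, IRF1 and RELA, which encode factors that bind the SXY, interferon and NF-kappaB elements. Of 7 genes of peptide supply, 6 were called in all 4 lines, and of 5 genes of peptide loading and editing, 4 were. The exceptions were ERAP2, a peptidase that trims peptides in the endoplasmic reticulum, and TAPBPL, which encodes the tapasin-related peptide editor TAPBPR. Both had a promoter peak in the 6 libraries of GM12878, HFF1 and K562 and none in HEK293T, as did TAPBP. That pattern was found for 2.08% of all protein-coding genes. HEK293T had the lowest background level, and the part of depth in the gaps at ERAP2 and TAPBPL was not tested.

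Genes with a profile most like that of NLRC5 were sought by the Pearson correlation over the 8 libraries of log2(base pairs covered within 1 kb of start sites + 1). ZNF782 (r = 0.985), HAPLN3 (r = 0.983) and FGF8 (r = 0.979) came first, and 113 of 16996 genes had r above 0.9. For HLA-G, with peaks in 2 libraries only, SEPTIN12 (0.996), SMIM22 (0.996) and GDF10 (0.994) came first. The points are 4 pairs of replicate libraries that share line and depth, so these values describe likeness and nothing of shared control.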

How the data were processed

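Bulk ATAC-seq peak lists of 8 human libraries (4 lines, 2 replicates each) were analysed. Nuclei were tagmented with Tn5, about 20000 were sorted, and libraries were amplified over 15 PCR cycles and selected for 200 to 700 bp, per the labels' protocols. The submitters' processing notes name cutadapt 3.2, Bowtie2 2.4.2, Picard and MACS2 2.2.7.1; settings, read shift and mapping filter are not given in the sources used here, so the placement of reads between similar class I genes is unknown. The authors deposited 1 list per library, with replicates not pooled. Each deposited peak has a fold (a ratio of the summit to the local background of its own library), a -log10 p, a -log10 q and a score (10 times that -log10 q, truncated). The lists were filtered and ranked by these values within each library. Folds of different libraries are printed side by side, but they are not on a common scale and no test compared them. Coordinates are on GRCh38 and counted from 1; no peak passed a chromosome end.

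The whole-number pileup and local background behind each peak were solved from its fold and -log10 p (100% of peaks, relative tolerance 0.001). The reads come from PCR without molecular identifiers and do not count independent molecules. Over matched peaks, the variance between replicate pileups was 0.464 to 0.532 of binomial variance in all 4 lines; a summit is a maximum, so this does not decide whether replicates are separate libraries, and all were kept as labelled. Peaks of the 8 libraries were merged into regions where they overlapped by at least 1 bp. Thinning drew each pileup binomially (seed 1) to the HEK293T background level and kept peaks with a -log10 p of at least 4.18. All HEK293T peaks were kept, so thinning could not change HEK293T calls. The kept peaks held their full width. A permutation of 2 libraries against 2 cannot go below p = 0.333, so single pairs of lines are described without a test. Covered length was tested over the 4 lines together as stated in the report, after a check on simulated data.

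All 9 genes and each promoter region are described, with pathway genes named where their calls differ and the 3 genes most correlated with NLRC5 and HLA-G. The genes, lists, markers and motifs were chosen with earlier results of these data known. Alternatives were a 500 bp window, summits only, canonical start sites only, -log10 q of at least 5, the 40000 strongest peaks, thinning, a 5 kb flank, numbers of peaks, a replicate block and leaving out each library. Promoter sequences are from the RefSeq table. Python 3.11.15, numpy 2.4.6, pandas 2.3.3, scipy 1.17.1, Biopython 1.88 and matplotlib 3.10.9 were used.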

Additional observations from a re-analysis of the deposited data

How the results depend on the processing

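The window, threshold, list-length and thinning settings can only remove promoter calls, so they could not restore the missing calls at HLA-F, TAPBP and HLA-G. After thinning, TAPBP was still called in GM12878, HFF1 and K562. With 1 library deciding a call, HLA-G was called in HFF1 without HFF1 replicate 1 and in K562 without K562 replicate 2. Counts of regions followed the distance and depth used. Within 5 kb in place of 20 kb, GM12878 had 29 regions, HEK293T 13, HFF1 27 and K562 19, and 15 were in 1 line only. Among the 40000 strongest peaks of each list, GM12878 had 32, HFF1 27, and 10 were in 1 line only. After thinning, K562 had 23 and 20 were in 1 line only. In the test of covered length, 14923 genes passed. The 40000 strongest peaks gave 7623 genes (40.4% of those tested) and 5 of the 9. Thinning gave 8115 genes (42.2%) and 3 of the 9, and a 5 kb flank gave 12496 genes (66.6%) and 2 of the 9. With the number of peaks in place of covered length, 0 genes and 0 of the 9 passed in the exact permutation test (8600 genes and 4 of the 9 at an unadjusted p of 0.05). Leaving out 1 library at a time gave 11889 to 13334 genes (61.4% to 68.8%) and 4 to 6 of the 9. With the replicate block, 0 genes and 0 of the 9 passed in the exact permutation test (10249 genes and 3 of the 9 unadjusted). There 24 arrangements limit p to 0.0417 or more, and the smallest adjusted p was 0.0788. Replicate numbers did not pair the libraries: deviations from line means correlated by -0.017 to 0.005 over 6 pairs of lines. The causes of these changes were not tested. HEK293T depth limits what its lists can show.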
